A study of Mus musculus with 8 samples.

Results

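Lyz2, the gene whose promoter drives Cre recombinase in the MøFoxO1-KO mice, was followed in whole liver RNA together with its neighbor Lyz1 and 8 genes that mark macrophages in general, Csf1r, Adgre1, Cd68, Mpeg1, Cd14, Fcgr1, Mertk and Aif1. These 10 genes were picked by symbol from the 46517 genes of the count table, and all 10 were found. RNA-Seq libraries came from 4 male MøFoxO1-KO mice (FoxO1loxP/loxP-Lyz2-Cre) and 4 male WT littermates (FoxO1loxP/loxP without Cre), so the floxed FoxO1 alleles were present in both groups. All mice were C57BL/6 and ate the NASH diet from the age of 6 weeks, for 25 weeks in all, until they were euthanized at 31 weeks after a 16-hour fast. Lyz2-Cre acts in myeloid cells throughout the body. Whether these mice carried 1 or 2 copies of the Cre allele is not given in the sources used here.

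Lyz2 encodes lysozyme M, an enzyme that cleaves bacterial cell walls and is made by monocytes, macrophages and neutrophils. In the widely used Lyz2-Cre line, Cre was knocked into the start of the Lyz2 coding sequence, so that the targeted allele makes Cre in place of lysozyme. Macrophages of the liver comprise resident Kupffer cells, which are seeded before birth and renew themselves, and macrophages that arise from blood monocytes during injury. Both kinds depend on signals through the receptor encoded by Csf1r, and both express the pan-macrophage genes examined here.

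Lyz2 and Lyz1 lie next to each other on the minus strand of chromosome 10 of GRCm38, Lyz2 (ENSMUSG00000069516) from 117277334 to 117282274 and Lyz1 (ENSMUSG00000069515) from 117287796 to 117292868 by the coordinates of the count table. In GENCODE M21 each gene has 1 transcript of 4 exons with a coding sequence of 447 bases that starts in the first exon. The coding sequences, taken from the GENCODE M21 transcripts, are shown because a count table can tell the pair apart only where they differ. The first 300 of the 447 bases are printed, and capitals mark the 20 positions at which they differ there.
Lyz2 coding sequence: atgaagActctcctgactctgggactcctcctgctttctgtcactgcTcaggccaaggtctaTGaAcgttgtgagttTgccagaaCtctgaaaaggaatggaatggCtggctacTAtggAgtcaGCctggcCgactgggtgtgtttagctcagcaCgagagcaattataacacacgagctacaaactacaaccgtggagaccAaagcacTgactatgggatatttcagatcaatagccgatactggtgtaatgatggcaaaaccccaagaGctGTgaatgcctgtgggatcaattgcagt
Lyz1 coding sequence: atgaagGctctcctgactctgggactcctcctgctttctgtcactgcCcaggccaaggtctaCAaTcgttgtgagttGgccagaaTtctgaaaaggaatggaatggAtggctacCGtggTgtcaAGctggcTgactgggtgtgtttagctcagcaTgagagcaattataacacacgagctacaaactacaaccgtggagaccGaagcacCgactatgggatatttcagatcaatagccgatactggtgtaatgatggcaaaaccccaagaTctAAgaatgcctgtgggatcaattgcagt
Over their whole length the coding sequences differed at 22 positions and were 95.1% identical. Of the 1217 windows of 100 bases in the Lyz2 transcript, 24 (1.97%) also occurred without a mismatch in the Lyz1 transcript. For windows of 50 bases it was 195 of 1267 (15.4%), for windows of 150 bases 0 of 1167, and the longest identical run had 118 bases. The read length and the treatment of reads that match both genes are not given in the sources used here, so how many counts of either gene belong to the other cannot be told. Lyz1 had 1 to 11 counts per mouse beside 83 to 1268 for Lyz2. In WT replicate 24 it had 2 counts beside 1268, and in MøFoxO1-KO replicate 27 it had 9 beside 83. The part of Lyz2 reads in the Lyz1 counts was not tested.

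The window around the RefSeq start site of each gene (GRCm38.p6, minus strand, 250 bases before the start site and 50 after it) shows the place where Cre sits in the widely used line. The window of Lyz2 is chr10:117282223-117282522 and that of Lyz1 is chr10:117292819-117293118, and capitals mark the start codon.
Lyz2 promoter window: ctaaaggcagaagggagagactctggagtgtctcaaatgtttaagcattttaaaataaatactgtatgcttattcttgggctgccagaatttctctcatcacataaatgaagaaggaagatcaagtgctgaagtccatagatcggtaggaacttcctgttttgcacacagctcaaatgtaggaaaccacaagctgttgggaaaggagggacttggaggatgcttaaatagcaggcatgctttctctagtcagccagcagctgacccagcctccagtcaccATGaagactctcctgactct
Lyz1 promoter window: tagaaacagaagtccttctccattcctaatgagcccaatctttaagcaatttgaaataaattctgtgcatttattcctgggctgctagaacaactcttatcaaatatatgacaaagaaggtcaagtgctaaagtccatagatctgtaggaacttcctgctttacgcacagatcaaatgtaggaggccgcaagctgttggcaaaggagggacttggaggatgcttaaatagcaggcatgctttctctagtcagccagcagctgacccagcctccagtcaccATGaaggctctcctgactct
The start codon lay 30 bases downstream of the start site in both windows, which were 82.5% identical over 302 aligned positions.

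Total counts per mouse lay between 15253218 and 18025481. Normalized counts of Foxo1, the targeted gene, were 303 to 459 across WT and 289.9 to 429 across MøFoxO1-KO mice (adjusted P = 0.686 by Benjamini-Hochberg, from edgeR). In RNA of the whole tissue, cells without Cre also contribute Foxo1, so these counts do not check its loss in macrophages. The paper reports that neither FoxO1 mRNA nor its protein could be detected in hepatic macrophages of MøFoxO1-KO mice. WT replicate 23 stood apart from the other WT mice, with the lowest correlation to its group (r = 0.950 across genes, the other mice 0.955 to 0.970). Its summed normalized counts were 1763 against 3600 to 4837 in the other WT mice for sinusoidal endothelial genes and 4344 against 6680.3 to 7106 for stellate cell genes. They were 72.8 against 169 to 283 for T and B cell genes and 123 against 201 to 363 for monocyte genes. Without it the log2 fold change of Lyz2 was -0.98 and the median over the 9 tested members was 0.55, against -0.77 and 0.63 with all mice.

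In MøFoxO1-KO livers the counts of Lyz2 spread widely and had a lower mean than in WT livers, while the 8 other macrophage genes all had a higher mean. Normalized counts (scaled to library size by TMM) of Lyz2 were 605, 378, 1170.3 and 702 in WT replicates 22, 23, 24 and 25. They were 413, 99.1, 139.5 and 1022 in MøFoxO1-KO replicates 26, 27, 28 and 29. MøFoxO1-KO replicates 27 and 28 thus lay below every WT mouse, and MøFoxO1-KO replicate 29 lay above 3 of the 4 WT mice. The highest MøFoxO1-KO value was 10.3 times the lowest, against 3.10 times among WT mice. WT livers averaged 714 ± 333 and MøFoxO1-KO livers 418 ± 426 normalized Lyz2 counts (SD, n = 4 each), with overlapping groups (exact two-sided permutation test, P = 0.343). For Lyz2 the log2 fold change came to -0.77 (SE 0.64; adjusted P = 0.586 by Benjamini-Hochberg, from edgeR), which did not pass the test. Without MøFoxO1-KO replicate 29 it was -1.71, and without WT replicate 24 it was -0.43 (P adjusted by Benjamini-Hochberg in edgeR, 0.264 and 0.790).

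Lyz1 is the lysozyme of intestinal Paneth cells and is barely expressed by most macrophages. It had 3, 1, 2 and 3 raw counts in the WT mice and 6, 9, 4 and 11 in the MøFoxO1-KO mice, in the order of the replicates. Every MøFoxO1-KO mouse was above every WT mouse, in the opposite direction to the means of Lyz2 (exact two-sided permutation test of normalized counts, P = 0.0286, the smallest that 4 against 4 mice allow). Lyz1 had too few counts for the low-count filter and was left out of the main fit across genes. In the fit without that filter it had an unadjusted P of 0.0206 and a Benjamini-Hochberg adjusted P of 0.308 in edgeR, and so did not pass the test. Summed over mice, 30 counts against 9 gave a ratio of 3.63 after scaling to depth, with an exact 95% interval of 1.68 to 8.70 that covers counting error only. The share of Lyz1 in the counts of both lysozymes was 0.157 to 0.462% in WT mice and 1.19 to 9.78% in MøFoxO1-KO mice. The highest share, in MøFoxO1-KO replicate 27, had a 95% Wilson interval of 5.23 to 17.6% and came from the mouse with the fewest Lyz2 counts, 83.

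**Figure D1:**
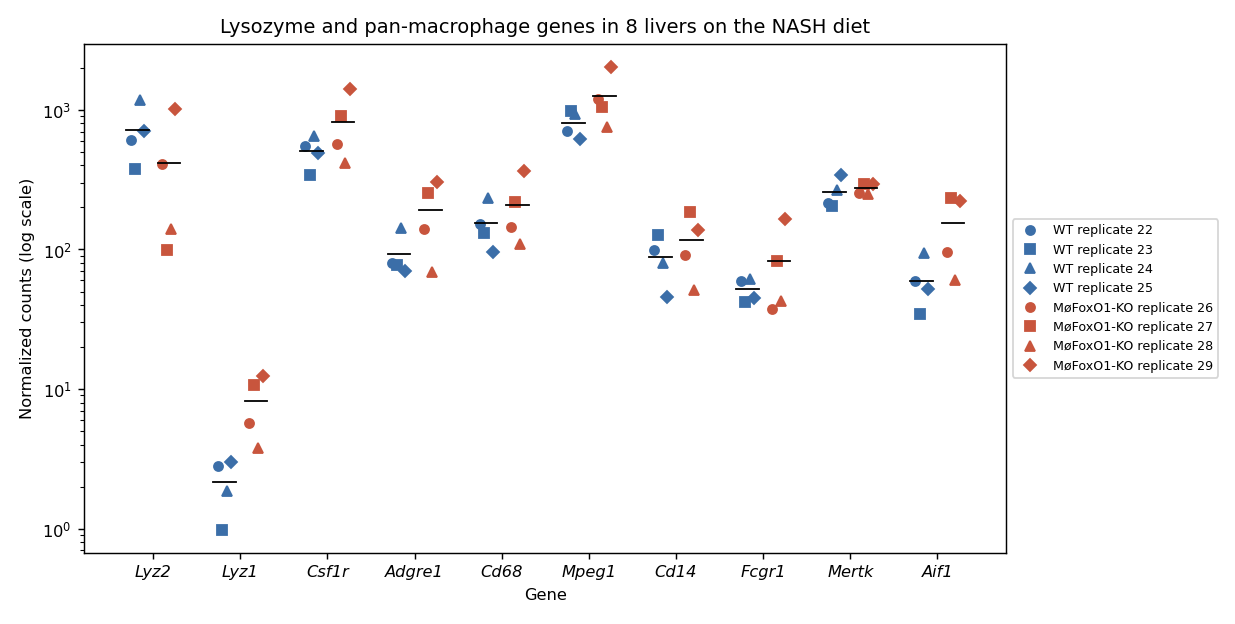
Normalized counts (log scale) of the 10 genes in each of 4 WT (blue) and 4 MøFoxO1-KO (red) livers; each symbol is 1 mouse and black bars are group means. Lyz2 spans 99.1 to 1022 in MøFoxO1-KO livers, Lyz1 is the only gene of the 10 whose groups do not overlap, and MøFoxO1-KO replicate 29 has the highest value for 5 of the 8 other genes.

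Csf1r (chromosome 18, 61105572 to 61132149) encodes the receptor for the macrophage growth factor CSF1. Hmgxb3, on the opposite strand, overlaps its end and had 70 to 142 counts per mouse. Normalized counts of Csf1r were 555, 344, 649.8 and 495 in WT replicates 22 to 25 and 566, 904, 419 and 1404 in MøFoxO1-KO replicates 26 to 29. MøFoxO1-KO replicates 27 and 29 lay above all WT mice and the other two lay within the WT range. The log2 fold change came to 0.69 (SE 0.34; adjusted P = 0.349, edgeR with Benjamini-Hochberg). Adgre1 (chromosome 17, 57358686 to 57483529) encodes F4/80, the surface protein used to stain mouse macrophages. It had 80.6, 77.7, 143 and 70.7 normalized counts in WT mice and 139.9, 252, 69.3 and 303 in MøFoxO1-KO mice, in the same order. Again MøFoxO1-KO replicates 27 and 29 were above, and replicate 28 was below, all WT mice. The log2 fold change of Adgre1 came to 1.03 (SE 0.42; adjusted P = 0.256, edgeR with Benjamini-Hochberg).

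Cd68 (chromosome 11, 69664213 to 69666153) encodes a glycoprotein of macrophage lysosomes, and Mpeg1 (chromosome 19, 12460779 to 12465284) encodes perforin-2, a pore-forming protein that acts on engulfed bacteria. Cd68 averaged 154 ± 58.8 normalized counts across WT livers and 209.9 ± 114 across MøFoxO1-KO livers (SD, n = 4 each; log2 fold change 0.45, adjusted P = 0.598, edgeR with Benjamini-Hochberg). Mpeg1 had 711, 983, 931 and 620.2 normalized counts in WT mice and 1191, 1052, 752 and 2026 in MøFoxO1-KO mice. Without MøFoxO1-KO replicate 29 the log2 fold change of Cd68 was 0.03, and those of Mpeg1 and Csf1r were 0.30. For Mpeg1, 3 of the 4 MøFoxO1-KO mice were above all WT mice (log2 fold change 0.63, standard error 0.28, adjusted P = 0.291, edgeR with Benjamini-Hochberg).

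Receptors for microbes, antibody and dying cells did not pass the test either. Cd14 lies on chromosome 18 (36725074 to 36726736), Fcgr1 on chromosome 3 (96282909 to 96293969) and Mertk on chromosome 2 (128698956 to 128802894). Cd14, the coreceptor for bacterial lipopolysaccharide, ranged from 45.8 to 128 normalized counts in WT and from 51.2 to 185 in MøFoxO1-KO livers (log2 fold change 0.40, adjusted P = 0.661, edgeR with Benjamini-Hochberg). Fcgr1, the high-affinity receptor for IgG, ranged from 42.3 to 61.8 in WT and from 37.4 to 166 in MøFoxO1-KO livers (log2 fold change 0.64, adjusted P = 0.505, edgeR with Benjamini-Hochberg). The highest Fcgr1 value belonged to MøFoxO1-KO replicate 29, and without that mouse the log2 fold change was 0.04. Without MøFoxO1-KO replicate 27 that of Cd14 was 0.10. Mertk, a receptor tyrosine kinase for the uptake of apoptotic cells, averaged 256 ± 63.5 normalized counts across WT livers and 274 ± 24.4 across MøFoxO1-KO livers (SD, n = 4 each; log2 fold change 0.10, standard error 0.17, adjusted P = 0.819, edgeR with Benjamini-Hochberg). It varied least of the 10 genes among MøFoxO1-KO mice, with a coefficient of variation of 8.89%.

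Aif1 (chromosome 17, 35170991 to 35176068) encodes IBA1, an actin-binding protein of macrophages and microglia, and had the largest difference of the 9 genes tested. Its normalized counts were 59.0, 34.4, 94.1 and 51.8 in WT replicates 22 to 25 and 95.9, 235, 60.7 and 224 in MøFoxO1-KO replicates 26 to 29. All but MøFoxO1-KO replicate 28 lay above every WT mouse (exact two-sided permutation test, P = 0.0571). The log2 fold change came to 1.35 (SE 0.45; adjusted P = 0.197, edgeR with Benjamini-Hochberg). By DESeq2, Aif1 had a Benjamini-Hochberg adjusted P of 0.0462, at a fold change under the limit for a call.

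Calls required that a gene's Benjamini-Hochberg adjusted P in edgeR be under 0.05 and its log2 fold change exceed 1.5 in size, a limit that 25 of 13278 tested genes (0.188%) passed. None of the 9 tested members was called by edgeR, and neither DESeq2, which called 1.22% of its genes, nor limma-voom called any. At an unadjusted P under 0.05, 3 of the 9 (Adgre1, Mpeg1 and Aif1) were higher and none was lower in MøFoxO1-KO livers. Of all tested genes 16.7% had such a P, 8.65% as higher and 8.06% as lower in MøFoxO1-KO livers. Of the 10 members, Lyz1 alone had all MøFoxO1-KO mice above all WT mice, which 5.0% of tested genes had, and none had all below (4.71%, so that 9.71% of tested genes had groups that did not overlap). The median log2 fold change of the 8 macrophage genes other than the lysozymes was 0.64, against -0.01 over all tested genes. Leaving out MøFoxO1-KO replicate 28 made it 0.85, leaving out replicate 29 made it 0.30, and each of the 8 genes kept a positive log2 fold change in all 8 fits that left out 1 mouse. MøFoxO1-KO replicate 29 was the highest mouse for 5 of the 8 genes and among the highest 2 for all 8. In whole liver RNA, fewer or more cells of a type cannot be told apart from less or more RNA per cell.

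Levels of different genes were compared per length, as RPKM (counts per kilobase of gene length, scaled to library size). In WT livers Lyz2 was highest, at 34.4 ± 16.0 (SD, n = 4), with no overlap with Mpeg1, which followed at 11.4 ± 2.44. Then came Cd68 (7.45 ± 2.85), Csf1r (6.38 ± 1.60), Mertk (3.60 ± 0.893), Cd14 (3.41 ± 1.33), Aif1 (2.38 ± 0.998), Adgre1 (1.75 ± 0.632) and Fcgr1 (1.23 ± 0.238), each with n = 4 and each overlapping the next in the ranges of the mice, and last, without overlap, Lyz1 (0.104 ± 0.0448). In MøFoxO1-KO livers Lyz2 had 20.1 ± 20.5 and Mpeg1 17.6 ± 7.67 RPKM (SD, n = 4). Lyz2 was above Mpeg1 in 4 of 4 WT mice and in 2 of 4 MøFoxO1-KO mice, and Aif1 stood above Cd14 and Mertk by mean in MøFoxO1-KO livers but below both in WT livers.

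Setting Lyz2 against another gene of the same mouse removes the scaling of the library. The groups then separated for 5 of the 9 other members and overlapped for the rest. The ratio of Lyz2 to Csf1r normalized counts was 1.09, 1.10, 1.80 and 1.42 in WT replicates 22 to 25 and 0.731, 0.110, 0.333 and 0.728 in MøFoxO1-KO replicates 26 to 29. Lyz2 thus exceeded Csf1r in each WT mouse and in no MøFoxO1-KO mouse. On the log2 scale this ratio averaged 0.40 ± 0.35 across WT and -1.42 ± 1.29 across MøFoxO1-KO livers (SD, n = 4 each), a difference of -1.82 (exact two-sided permutation test, P = 0.0286).

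The ratio of Lyz2 to Aif1 was the most even among WT mice, at 10.3, 11.0, 12.4 and 13.6, and was 4.31, 0.421, 2.30 and 4.56 in the MøFoxO1-KO mice. The ratio to Adgre1 was 7.51, 4.86, 8.18 and 9.93 in WT and 2.95, 0.393, 2.01 and 3.37 in MøFoxO1-KO mice. In both ratios MøFoxO1-KO replicates 26 and 29 lay close together, replicate 28 was lower and replicate 27 was lowest. The differences between group means were -2.48 for Aif1 and -2.13 for Adgre1 on the log2 scale (exact two-sided permutation tests, P = 0.0286 for each). Aif1 and Adgre1 were themselves higher by mean in MøFoxO1-KO livers (log2 fold changes 1.35 and 1.03), which enters these ratios.

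Of the 9 ratios of Lyz2 to another member, 5 had all MøFoxO1-KO mice below all WT mice, those to Lyz1, Csf1r, Adgre1, Cd68 and Aif1. The same held for 3.14% of the ratios of Lyz2 to the other 13277 tested genes, and 0.0151% had all MøFoxO1-KO mice above. Lyz1, which the low-count filter removed, is not among these 13277 genes. The P values of the 9 ratios were not adjusted, share the Lyz2 values and cannot go below 0.0286. For Cd68 the groups did not overlap by a narrow margin, with a lowest WT ratio of 2.87 and a highest MøFoxO1-KO ratio of 2.85. For Mpeg1, Fcgr1, Cd14 and Mertk the groups overlapped, with differences of -1.81, -1.66, -1.60 and -1.38 and exact two-sided permutation P of 0.0571, 0.0857, 0.171 and 0.171. Without any 1 mouse the difference stayed below 0 for all 9 ratios, but MøFoxO1-KO replicate 27 set much of its size. Without that mouse the difference was -1.71 for Aif1, -1.44 for Adgre1, -1.23 for Csf1r, -1.06 for Cd68 and -2.23 for Lyz1. It was -1.37 for Mpeg1, -1.07 for Fcgr1, -0.85 for Mertk and -0.83 for Cd14. Among the 28 ratios that can be formed between the 8 macrophage genes themselves, the median absolute difference between groups was 0.32 on the log2 scale and the largest was 1.11, between Mertk and Aif1. The groups did not overlap for 2 of these 28 ratios, those of Csf1r and of Cd68 to Aif1. Both involve Aif1, the tested member with the largest log2 fold change. The share of such ratios over all pairs of tested genes was not computed, so 2 of 28 cannot be judged as many or few.

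**Figure D2:**
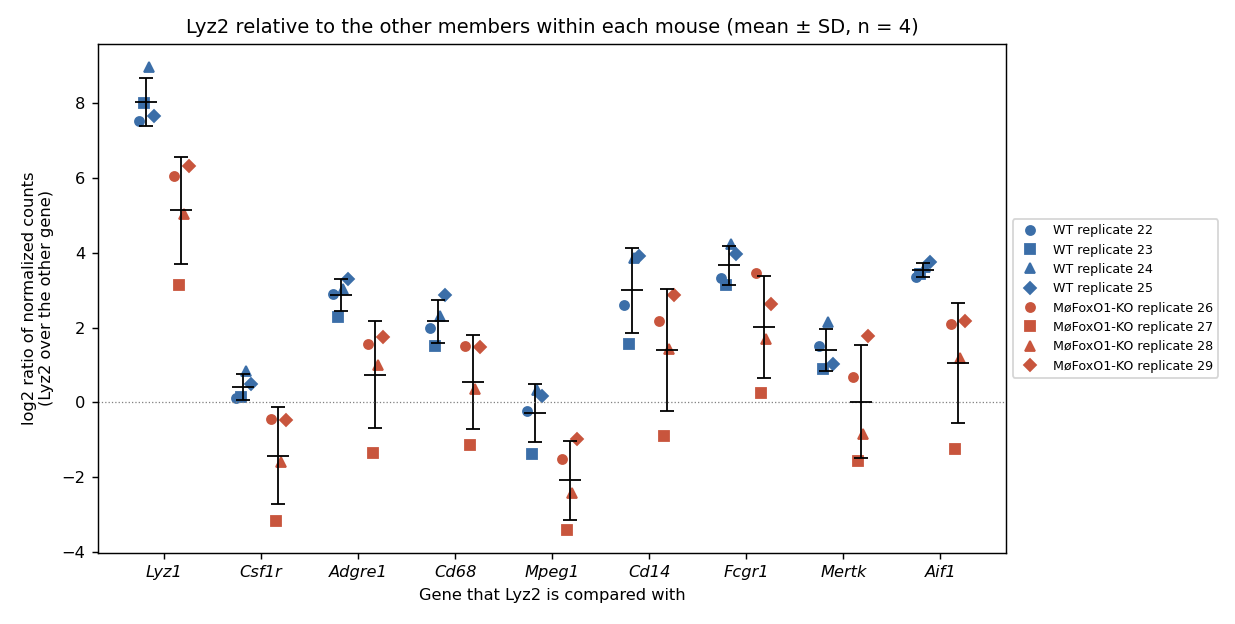
The log2 ratio of Lyz2 to each other gene (normalized counts + 0.5) in each WT (blue) and MøFoxO1-KO (red) mouse, with the mean ± SD (n = 4) in black. Ratios to Lyz1, Csf1r, Adgre1, Cd68 and Aif1 are lower in every MøFoxO1-KO mouse than in every WT mouse, and MøFoxO1-KO replicate 27 has the lowest value in each column.

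The genes around Lyz2 were examined for a difference shared along the chromosome. Of the 10 genes other than Lyz2 that start within 250 kb of it, 4 were tested, and Lyz1 had too few counts. Cct2 (a chaperonin subunit), Frs2 (an adaptor of growth factor receptors), Yeats4 (a chromatin reader) and Cpsf6 (a factor of mRNA 3' end processing) had log2 fold changes of 0.05, -0.10, -0.02 and 0.14 with standard errors of 0.11 to 0.14 (adjusted P from 0.572 to 0.955, edgeR with Benjamini-Hochberg). None of these flanking genes differed beyond the spread between mice. The other 5 genes, Lrrc10, 9530003J23Rik, Gm26311, Gm10936 and Gm9002, had 0 counts in all 8 mice.

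**Figure D3:**
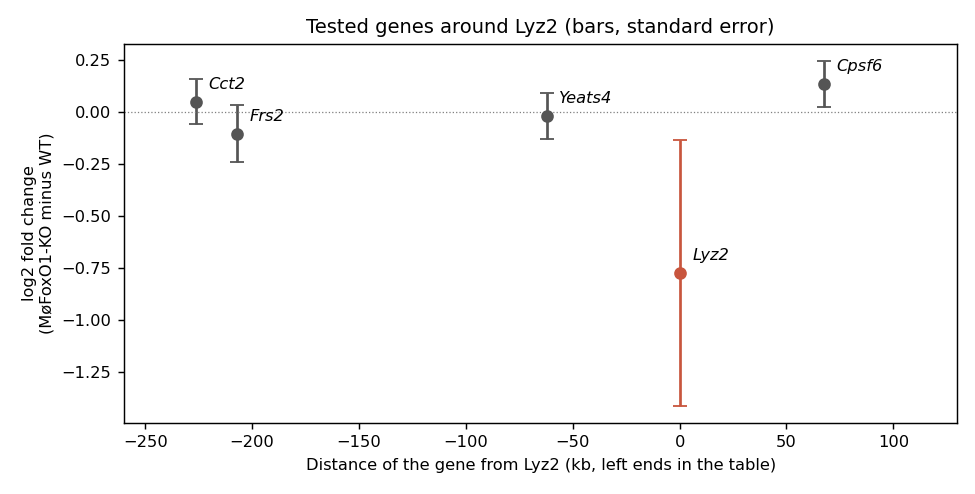
Log2 fold change (MøFoxO1-KO minus WT, edgeR) with its standard error for tested genes by their distance from Lyz2 in kb. The 4 flanking genes lie between -0.10 and 0.14, and Lyz2 lies at -0.77 with a standard error of 0.64.

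Likeness to Lyz2 over the 8 mice was measured as the root mean square difference of log2 normalized counts centered on each gene's mean, among genes with a mean of at least 50. The nearest profiles were those of Cpxm1 (0.597), Cyp4a31 (0.670), Myc (0.706), Acot9 (0.761) and Vldlr (0.792), while the spread of Lyz2 itself was 1.20 by the same measure. None of these 5 was a macrophage gene of the lists examined here. The nearest profiles to Csf1r were far closer, at 0.154 for C1qb, 0.154 for Gm49339, 0.160 for Fyb, 0.161 for C1qc and 0.170 for Lgmn, against a spread of 0.599 for Csf1r.

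Ligands and partners of the members are also made by other liver cells. Csf1, a ligand of Csf1r, averaged 201 ± 54.8 normalized counts across WT livers and 224 ± 46.9 across MøFoxO1-KO livers (SD, n = 4 each), and Il34, the other ligand, had 53.6 ± 18.6 and 56.6 ± 26.5 (SD, n = 4). Gas6, a bridging ligand of Mertk, had 1487, 1120.0, 1645 and 1386 normalized counts in WT mice and 885, 775, 765 and 1065 in MøFoxO1-KO mice. For Gas6, all 4 MøFoxO1-KO values were lower than the lowest WT value, which held for 4.71% of all tested genes. Its log2 fold change was -0.69 (standard error 0.15, adjusted P = 0.102, edgeR with Benjamini-Hochberg), and DESeq2 gave a Benjamini-Hochberg adjusted P of 0.0044. The other Mertk ligand, Pros1, had a log2 fold change of -0.15, and the sister receptor Axl one of 0.19. Tyro3, the third receptor of that family, had at most 15 counts in any mouse and entered only fits without the filter on low counts (Benjamini-Hochberg adjusted P = 0.625 in edgeR and 0.630 in DESeq2).

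The Cd14 partners Tlr4, Ly96, Lbp and Myd88 had log2 fold changes of 0.60, 0.29, -0.14 and 0.13. Of the Fc receptor genes, Fcer1g, which encodes the shared signaling chain, had 0.84, and the sister receptors Fcgr2b, Fcgr3 and Fcgr4 had 0.11, 0.20 and 1.54 on the same scale. Fcgr4 reached 612 normalized counts in MøFoxO1-KO replicate 29 against 65.5 to 145 in the other MøFoxO1-KO mice, and its log2 fold change was 0.35 without that mouse. Of the 13 partner genes tested, 10 were higher and 3 lower by mean, none was called by edgeR, DESeq2 or limma-voom, and Gas6 alone had an unadjusted P under 0.05 in edgeR.

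In a list of 20 other macrophage genes, 18 log2 fold changes were above 0 (48.3% of all tested genes were), with a median of 0.69. None was called by edgeR, DESeq2 or limma-voom, and 3 had an unadjusted P under 0.05 in edgeR, all as higher. Of all tested genes 16.7% had such a P, 8.65% as higher. The 3 genes were C1qa and C1qb, chains of the complement component C1q, and Cd86, a costimulatory ligand for T cells. C1qa averaged 779 ± 214 normalized counts across WT livers and 1763 ± 1144 across MøFoxO1-KO livers (SD, n = 4 each; log2 fold change 1.18, adjusted P = 0.212, edgeR with Benjamini-Hochberg). Cx3cr1, the fractalkine receptor, was the lowest of the list at -0.84 (adjusted P = 0.435, edgeR with Benjamini-Hochberg). The counts of Lyz2, which is not in this list, came to 6.68, 5.99, 10.6 and 8.59% of the summed counts of these 20 genes in WT mice. In MøFoxO1-KO mice they came to 5.07, 0.834, 1.73 and 4.56%, without overlap. Against 4 other sums the groups overlapped. Relative to the sum of the 8 macrophage members other than the lysozymes, Lyz2 counts came to 19.4 to 47.6% in WT and 3.07 to 20.8% in MøFoxO1-KO mice. Relative to the sum of 10 Kupffer cell genes they came to 5.68 to 19.2% against 0.796 to 6.10%. For the smaller sum of the monocyte genes the values were 219 to 349% against 37.7 to 233%. For that of the neutrophil genes they were 512 to 885% against 94.3 to 937%.

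Genes of Kupffer cells, the resident macrophages, were higher by mean in 9 of 10 cases, with a median log2 fold change of 0.87. In edgeR 6 were higher with an unadjusted P under 0.05, as were 8.65% of all tested genes. None was called by edgeR or limma-voom, and DESeq2, which called 1.22% of its genes, called 2, Timd4 and Marco. Timd4, a receptor for phosphatidylserine on dying cells, averaged 53.2 ± 5.24 normalized counts across WT livers and 226 ± 138 across MøFoxO1-KO livers (SD, n = 4 each; adjusted P = 0.0968, edgeR with Benjamini-Hochberg). All MøFoxO1-KO mice were above all WT mice for Timd4, which held for 2 of the 10 genes and for 5.0% of all tested genes. Marco, a scavenger receptor, had 4.92 to 81.2 in WT livers and 737, 2712, 66.4 and 2119 in MøFoxO1-KO replicates 26 to 29 (adjusted P = 0.0870, edgeR with Benjamini-Hochberg). MøFoxO1-KO replicate 28 was the lowest MøFoxO1-KO mouse for both genes, as it was for Csf1r, Adgre1 and Aif1.

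Genes of lipid-associated macrophages split. Gpnmb, a glycoprotein of lysosomes and the cell surface, was the only gene of all these lists called by edgeR (log2 fold change -4.13, Benjamini-Hochberg adjusted P = 0.0382), and Trem2, a lipid-sensing receptor, had -3.88 (Benjamini-Hochberg adjusted P = 0.0983 in edgeR). Fabp5, a fatty acid-binding protein, had a higher mean at 1.91 (Benjamini-Hochberg adjusted P = 0.131 in edgeR). The median of the 8 genes was 0.09, with 4 higher and 4 lower by mean. For Gpnmb and Trem2 every MøFoxO1-KO mouse lay below all WT mice, which held for 4.71% of all tested genes. The groups overlapped for all members but Lyz1. No gene of this list was called when at least 10 counts in every mouse were required. The call of Gpnmb was lost with limma-voom (adjusted P = 0.138) and on leaving out any single mouse other than MøFoxO1-KO replicate 28.

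Lyz2 is also expressed by neutrophils and monocytes, so their markers were measured beside it. The summed normalized counts of 11 neutrophil genes ran from 68.4 to 162 across WT and from 44.1 to 157 across MøFoxO1-KO mice, with no gene at 0 in all mice. Only 3 of these 11 genes had enough counts to be tested. Ly6g, a defining neutrophil gene, had at most 1 count in any mouse, and S100a8 and S100a9 had log2 fold changes of -0.05 and -0.08 (adjusted P = 0.980 and 0.971, edgeR with Benjamini-Hochberg). Monocyte genes summed to 123 to 363 in WT and 177 to 554 in MøFoxO1-KO livers. Ccr2, the chemokine receptor of inflammatory monocytes, had a log2 fold change of -0.25, and none of the 4 monocyte genes tested was called or had an unadjusted P under 0.05 in edgeR. MøFoxO1-KO replicate 27, with the fewest Lyz2 counts, had 105 summed neutrophil counts and 263 summed monocyte counts, both inside the WT range. The part of these cells in the Lyz2 result was not tested.

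**Figure D4:**
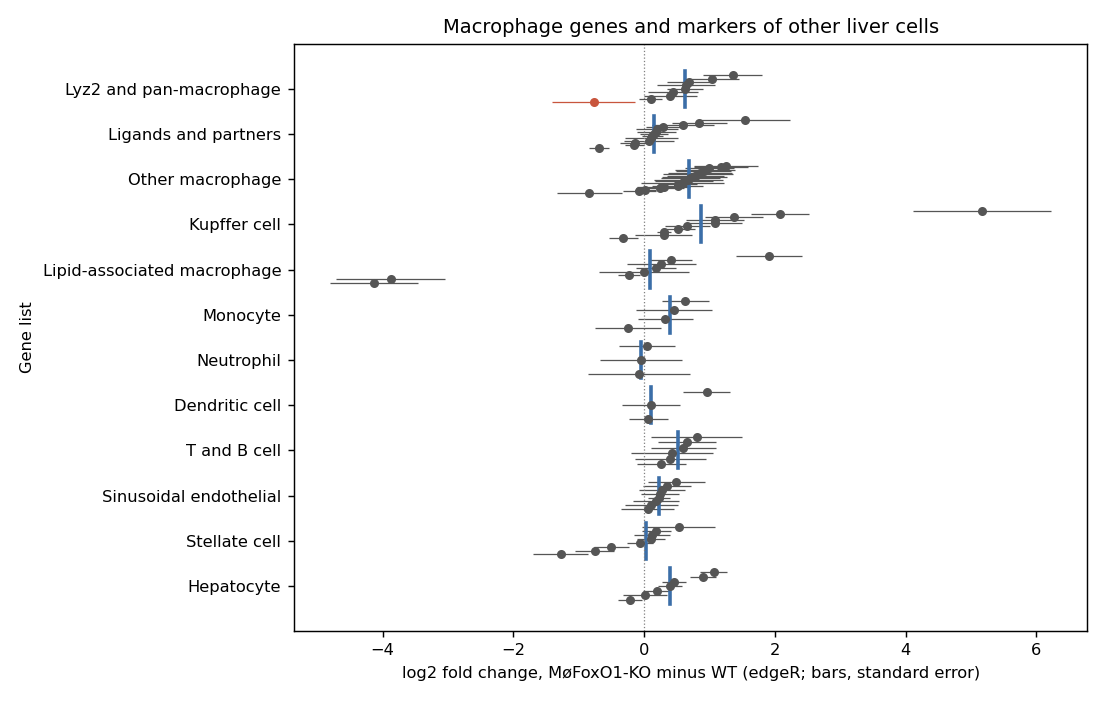
Log2 fold changes (MøFoxO1-KO minus WT, edgeR, with standard errors) of tested genes by list; blue ticks are list medians and Lyz2 is red. The members other than Lyz2 lie between 0.10 and 1.35, and Lyz2 at -0.77 is the only member below 0.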

How the data were processed

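RNA was isolated from liver tissue, and libraries were prepared from polyadenylated RNA. Per the labels, the submitters' processing notes name STAR, featureCounts and mm10. Versions, strand setting and annotation release are not given in the sources used here. The authors deposited raw read counts per Ensembl gene without normalization, with exon coordinates and gene length. Symbols were taken from GENCODE M21, and 512 genes without one held 0.0399% of counts. Coordinates are those of the table; its ends matched GENCODE M21 for 4 of the 10 members.

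Genes were filtered with filterByExpr (minimum count 10, minimum total 15), TMM-scaled and fitted in edgeR 4.0.16 (quasi-likelihood test) in R 4.3.3, with Benjamini-Hochberg adjustment over 13278 genes. Normalized counts and log2 ratios (pseudocount 0.5) were compared by exact two-sided permutation tests (scipy 1.17.1). Of 200 genes changed by 2 on the log2 scale in simulated data (13091 genes), 197 were recovered with 4 false calls. The changed genes were drawn from those with a mean of at least 50, and smaller changes were not simulated. Alternatives were DESeq2 1.42.0, limma-voom (limma 3.58.1), other scalings and filters, the robust fit, a pseudocount of 1 and leaving out each mouse.

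The named genes followed a rule: the 10 members, Foxo1, their partners, genes near Lyz2, nearest profiles and, in each other list, genes with an adjusted P under 0.05 or the 3 with the smallest P. Cx3cr1, Ccr2 and Ly6g fall outside it and were chosen after their values were seen. The members and lists were chosen with earlier results of these data known. The symbol Tf, listed for hepatocytes, matched no gene.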

Additional observations from a re-analysis of the deposited data

Results flagged for a closer look

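Adgre1 in WT replicate 24 stood apart from the rest of its group, with 143 normalized counts against 70.7 to 80.6 in the other 3 WT mice, a gap of 0.864 of the group's range. Without that mouse the groups of Adgre1 still overlapped, since MøFoxO1-KO replicate 28 had 69.3. In all, 38 sets of 4 values (each member and each Lyz2 ratio in each genotype) were examined, and chance alone flags about 1 in 20.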

How the results depend on the processing

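All 9 tested members kept the sign of their log2 fold change in the 15 other fits that gave them a value, and no member was called in any of them. Lyz2 ranged from -1.71 to -0.43 when single mice were left out and was -1.25 with limma-voom. The median over the tested members ranged from 0.30 to 0.82 without single mice. The number of genes called moved from 25 to 120 without a filter on low counts, 176 with DESeq2, 13 with limma-voom and 39 without the limit on the fold change, and from 3 to 82 without single mice. Called Kupffer cell genes numbered 2 without a filter and with DESeq2, and 0 to 2 without single mice. Called lipid-associated macrophage genes numbered 3 without a filter, 3 with DESeq2, 0 with at least 10 counts in every mouse, 0 with limma-voom and 0 to 1 without single mice. The cause was not tested. With 1 mouse left out, the permutation test of a Lyz2 ratio cannot go below P = 0.0571, so these ratios were compared by value only; a pseudocount of 1 changed no ratio's side of 0.05. No paired analysis was made, because the sample labels used here give neither litter nor pair. Lyz1, at 1 to 11 counts, is limited by depth.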

Other observations

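Markers of cells that do not make Lyz2 gave the surroundings of these values. Hepatocyte genes had 6 of 7 log2 fold changes above 0 with a median of 0.39. In edgeR 3 of them were higher with an unadjusted P under 0.05, as were 8.65% of all tested genes. Apoa1, an apolipoprotein of HDL, and Serpina1a, an inhibitor of neutrophil elastase, had all MøFoxO1-KO mice above all WT mice, as did 5.0% of all tested genes. Their log2 fold changes were 1.07 and 0.90 (Benjamini-Hochberg adjusted P = 0.0765 and 0.102 in edgeR). The direction was thus that of most macrophage genes, and the part of this in the results for the members was not tested. Sinusoidal endothelial genes had 8 of 8 log2 fold changes above 0 with a median of 0.23, T and B cell genes 6 of 6 tested with a median of 0.52, and stellate cell genes 4 of 8 with a median of 0.02. Among stellate genes Col1a1, a fibrillar collagen chain, had all MøFoxO1-KO mice below all WT mice, as did 4.71% of all tested genes. It had 372 ± 114 normalized counts in WT and 153 ± 89.9 in MøFoxO1-KO livers (SD, n = 4), with a Benjamini-Hochberg adjusted P of 0.193 in edgeR. None of these genes was called by edgeR, DESeq2 or limma-voom.

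Across the MøFoxO1-KO mice, Lyz2 and Marco were ordered differently through replicate 27 alone. MøFoxO1-KO replicate 27 had the fewest normalized Lyz2 counts (99.1) and the most Marco counts (2712). In MøFoxO1-KO replicates 29, 26 and 28 both genes fell in the same order, with 1022, 413 and 139.5 for Lyz2 and 2119, 737 and 66.4 for Marco.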
